A study of Mus musculus with 6 samples.

Results

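The genes described here encode the serine/arginine-rich (SR) splicing factors, the heterogeneous nuclear ribonucleoproteins (hnRNPs) and core proteins of the spliceosome. They were taken by symbol: every gene named Srsf with a number, Hnrnp genes, Sf3a and Sf3b with a number, U2af1 or U2af2 and names that begin so, every Snrp gene, and Prpf with a number. Among 18193 genes named by 1 symbol on the array, 61 matched, read by 171 of 45037 probe sets. They comprised 10 SR genes, 18 hnRNP genes, 9 SF3 genes, 3 U2AF genes, 9 Snrp genes and 12 Prpf genes. All samples were mouse hippocampal RNA on Affymetrix whole-genome arrays, whose probe sets each read part of a gene's transcripts. The groups were 3 arrays with RNA recovered on protein-G beads with an antibody to the myc tag of transgenic HuD, 2 arrays with RNA recovered on beads with non-immune IgG, and 1 array with total input RNA. The strain, sex and age of the mice, the promoter of the transgene, whether animals were pooled, and whether the IgG and input RNA came from transgenic tissue are details the labels do not give.

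HuD is encoded by Elavl4 and belongs to the ELAV family of neuronal proteins. It binds AU- and U-rich stretches in mRNAs and affects their stability, translation and splicing. Splicing is carried out by small nuclear ribonucleoproteins (snRNPs), each an RNA with a ring of Sm proteins and particle-specific proteins. The U2AF heterodimer recognises the 3′ splice site, the SF3a and SF3b complexes of the U2 snRNP hold the branch site, and the Prpf proteins of the U4/U6.U5 tri-snRNP take part in activation. SR proteins carry an RNA recognition motif and a domain rich in arginine-serine repeats and mostly promote exon use, whereas hnRNP proteins coat nascent transcripts and often repress exons. Many genes of both families are known to control their own level by splicing to transcripts that are degraded. What follows concerns the mRNAs of these proteins, not the proteins.

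The signals were already scaled, so a value is relative to the other RNAs of its array. In tissue RNA, fewer cells of a type and less RNA per cell cannot be told apart. Elavl4 itself had signals of 2294, 2010.1 and 1689 on the HuD arrays, against 766 and 642 on the IgG arrays and 597 in the input. The IgG arrays were at least 2-fold apart in 945 of the 9097 tested genes (10.4%), and pairs of HuD arrays in 39 to 322. The hippocampal label was set against 38 marker genes, of which 36 had a probe set and 31 were tested, and none was at 0 on any array. In the input, signals included 2501 for the granule and pyramidal cell marker Calb1 and 717 for Neurod6 of excitatory neurons, but 9.80 for Prox1, which marks dentate granule cells and was dim on every array, and 8913 for Ttr of the choroid plexus. Between HuD and IgG pulldowns 3 of the 31 markers (9.68%) were higher and 16 (51.6%) lower, beside 21.5% and 34.0% of all tested genes. Summed microglia markers had signals of 1382 to 1897 on the HuD arrays, against 2747 and 4438 on the IgG arrays and 4202 in the input. Summed astrocyte markers had signals of 5576 to 6853 on the HuD arrays, against 12373 and 13415 on the IgG arrays and 11863 in the input. Excitatory neuron markers summed to 3323 to 4239 on the HuD arrays, against 3558 and 3351 on the IgG arrays and 2787 in the input. Dentate granule and hippocampal markers summed to 1909 to 2257 (HuD), 3387 and 3665 (IgG) and 3584 (input). Interneuron markers, in the same order, summed to 4848 to 7256, 7227 and 8034, and 7792. Oligodendrocyte sums were 9204 to 13271, 13663 and 20668.5, and 12265. Choroid plexus sums were 11944 to 15113, 16098 and 18503, and 9172. Endothelial sums were 60.7 to 77.3, 247 and 165, and 144. The part of these cell types in the results below was not tested.

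HuD and IgG pulldowns were compared to see which mRNAs made up more of the RNA held by HuD than of that held by control beads. SR genes were mostly higher with HuD, and hnRNP genes more often higher than lower. Calls in the SF3, U2AF, Snrp and Prpf groups went both ways or down, in a comparison in which the tested genes as a whole were also more often lower. Of the 61 genes, 58 passed the filter on low signals and were tested. With limma and adjustment over all 9097 genes at a threshold of 0.05, 18 of the 58 (31.0%) were higher, 16 (27.6%) lower and 24 did not pass. Among all tested genes 21.5% were higher and 34.0% lower. The median log2 difference was 0.10 for the set and −0.28 for all tested genes. With the mean over a gene's probe sets in place of its brightest, the medians were −0.28 and −0.27, so the offset from all genes was not seen with that choice. Leaving out HuD array 1, 10 genes (17.2%) were higher and 11 (19.0%) lower, close to the 16.4% and 21.8% of all genes without that array. The split was 23 (39.7%) higher and 10 (17.2%) lower, beside 27.9% and 18.6% of all genes, with arrays centred on the 75th percentile, where the median of all genes moved to 0.036.

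By group, 7 of 10 SR genes rose and 0 fell, and the median log2 difference was 0.90. Of 17 tested hnRNP genes 6 rose and 2 fell (median 0.25). Of 9 SF3 genes 1 rose and 4 fell (median −0.54), and of 3 U2AF genes 0 rose and 2 fell. The Snrp group had 2 of 9 genes higher and 4 lower (median −0.83), and the Prpf group 2 of 10 higher and 4 lower (median −0.10). These are counts beside the shares for all genes, and the difference between families was not tested. Called or not, 24 of the 58 genes (41.4%) had every HuD array above both IgG arrays, beside 27.6% of all tested genes. Every HuD array was below both IgG arrays in 21 (36.2%), beside 43.1% of all tested genes, and 13 overlapped, U2af1 among them.

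**Figure D1:**
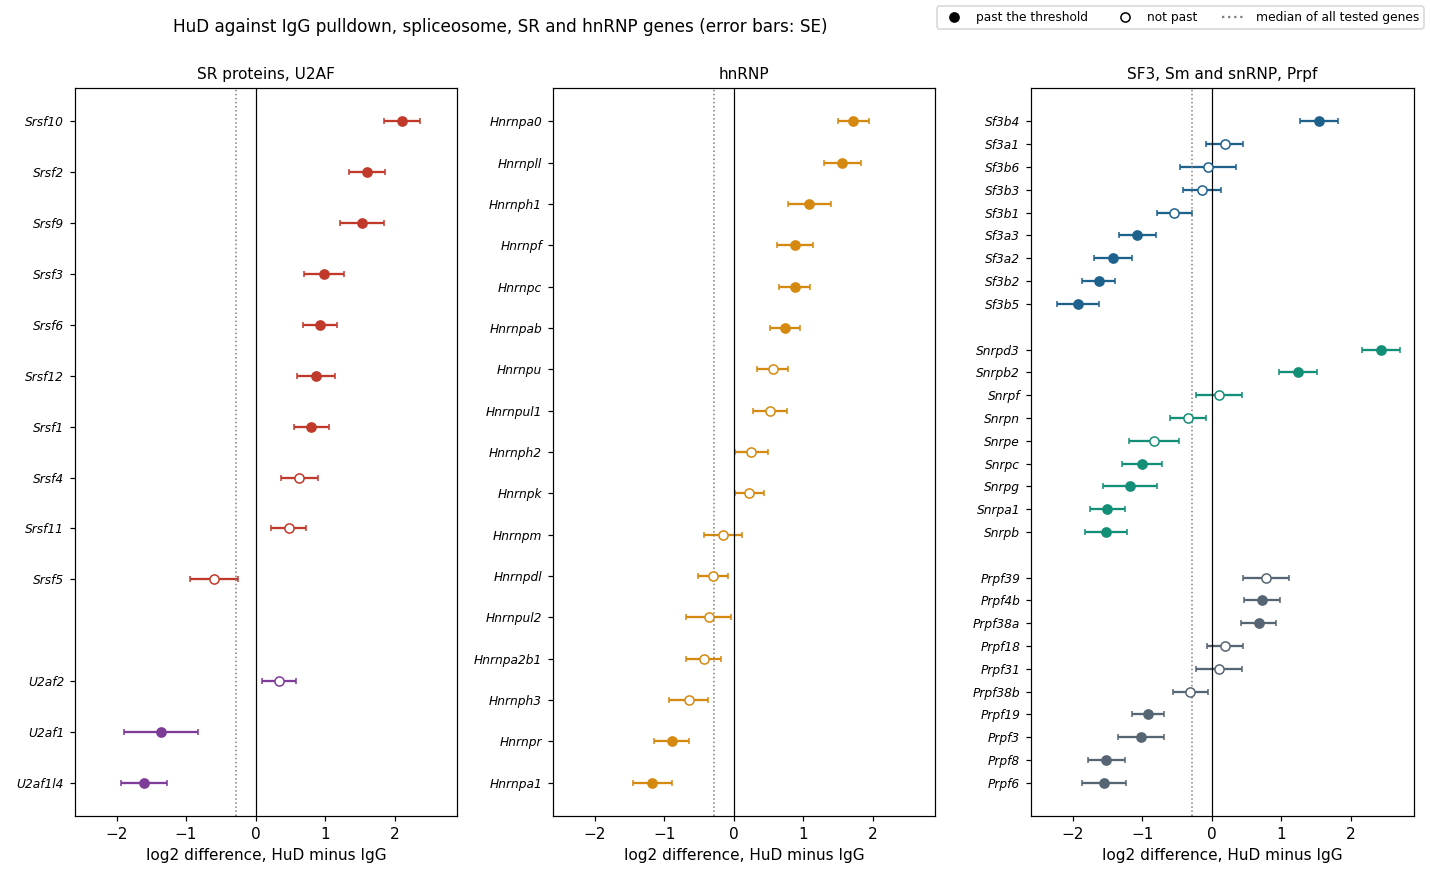
Log2 difference between HuD and IgG pulldowns (horizontal axis, points with standard error) for the 58 tested genes, by group. Filled points passed the threshold, open points did not, and the dotted line marks the median of all tested genes, −0.28. SR genes lie mostly to the right of 0, while SF3, Snrp and Prpf genes spread to both sides.

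The SR gene furthest apart was Srsf10, which encodes a splicing repressor active when dephosphorylated. Its signals were 998, 1033 and 988 on the HuD arrays, against 174 and 250.1 on the IgG arrays and 253 in the input. Every HuD array was well above the others, and the IgG arrays were at or below the input. The difference was 4.31-fold (log2 difference 2.11 ± 0.26, adjusted p = 0.000252). Srsf2, a factor of exon definition that is found in nuclear speckles, had signals of 1404, 1067 and 1064 on the HuD arrays, against 418 and 316 on the IgG arrays and 673 in the input. Here the input lay between the pulldowns (log2 difference 1.60 ± 0.26, adjusted p = 0.000879). Srsf9 had signals of 647, 1088 and 685 on the HuD arrays, against 328 and 192 on the IgG arrays and 234 in the input. HuD array 2 was the highest, and the groups did not overlap (2.87-fold, log2 difference 1.52 ± 0.31, adjusted p = 0.00256).

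Srsf3, the smallest SR protein and an adaptor of mRNA export, had signals of 1543, 1216 and 1497 on the HuD arrays, against 520.3 and 928 on the IgG arrays and 1097 in the input. The HuD arrays were all above the input, but IgG array 2 was near it (0.99 ± 0.29, adjusted p = 0.014). Srsf6 had signals of 1782, 2104 and 2177 on the HuD arrays, against 1060.3 and 1029 on the IgG arrays and 865 in the input. Both IgG arrays agreed closely and were somewhat above the input (0.93 ± 0.24, adjusted p = 0.00756). Srsf12 (0.87 ± 0.27) and Srsf1 (0.80 ± 0.25), the founding SR protein, also rose. Srsf4 (0.63 ± 0.26), Srsf11 (0.47 ± 0.25) and Srsf5 (−0.60 ± 0.34) did not pass. Srsf5 had signals of 284, 352 and 213 on the HuD arrays, against 655 and 289 on the IgG arrays and 549 in the input. Its groups overlapped, and without IgG array 2 the difference was −1.15. With the number in the titles as a replicate block and without the input, Srsf5 passed as lower (−0.73).

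Over all alternatives the number of SR genes that rose was 4 to 9 and the number that fell 0 to 1. With averaged probe sets 6 rose and 0 fell. Srsf10, Srsf6 and Srsf9 passed in every alternative, though averaging probe sets gave 1.04 for Srsf10. Srsf2 did not pass with averaged probe sets (0.44). Srsf3 did not pass without HuD array 1 (0.92) or IgG array 1 (0.59) or on its probe sets without an x or s suffix (0.55), nor Srsf12 without HuD arrays 1 (0.78) or 3 (0.80) or IgG array 1 (0.76). Srsf1 did not pass with quantile normalization (0.55) nor after leaving out HuD arrays 1 (0.65) or 3 (0.83) or IgG array 2 (0.65). Srsf4 passed with median (0.78) or 75th percentile centring (0.95), and was at 0.91 without IgG array 1.

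Among hnRNP genes, Hnrnpa0, which encodes a protein that binds AU-rich mRNAs, had signals of 4525, 4269 and 5073 on the HuD arrays, against 1443 and 1313 on the IgG arrays and 1619 in the input. Both IgG arrays lay just under the input and every HuD array far above it (3.30-fold, log2 difference 1.72 ± 0.23, adjusted p = 0.000311). Hnrnpll, a regulator of CD45 splicing in lymphocytes, had signals of 2305, 2577 and 2429 on the HuD arrays, against 631 and 1019.8 on the IgG arrays and 824 in the input. The IgG arrays were on either side of the input (2.95-fold, 1.56 ± 0.27, adjusted p = 0.000999). Hnrnph1, a protein that binds G-rich stretches, had signals of 2831, 2669 and 2217 on the HuD arrays, against 1733 and 812 on the IgG arrays and 1358 in the input. The IgG arrays differed from each other more than the HuD arrays did (1.09 ± 0.31, adjusted p = 0.0129). Its relative Hnrnpf had signals of 3892, 3381 and 4759 on the HuD arrays, against 1791 and 2545 on the IgG arrays and 1379 in the input. All pulldowns were above the input for this probe set (0.89 ± 0.26, adjusted p = 0.0133).

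Hnrnpc (0.88 ± 0.22), whose protein binds U-rich tracts, and Hnrnpab (0.74 ± 0.21) also rose. Hnrnpa1, a classical repressor of exon inclusion, fell, with signals of 180.2, 230.2 and 133 on the HuD arrays, against 511 and 376 on the IgG arrays and 203 in the input (−1.17 ± 0.29, adjusted p = 0.00574). Its HuD arrays lay around the input and its IgG arrays above it. Hnrnpr fell (−0.89 ± 0.25), while Hnrnpa2b1 (−0.43 ± 0.25), Hnrnph3 (−0.65 ± 0.28), Hnrnpul2 (−0.36 ± 0.32), Hnrnpdl (−0.30 ± 0.21) and Hnrnpm (−0.15 ± 0.27) did not pass. Hnrnpu (0.56 ± 0.22), Hnrnpul1 (0.52 ± 0.24), Hnrnph2 (0.25 ± 0.24) and Hnrnpk (0.22 ± 0.21) did not pass either.

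Without HuD array 1, 3 hnRNP genes were called higher and 1 lower, and with averaged probe sets 5 and 1. Hnrnpa0, Hnrnpll and Hnrnpc passed in every alternative, and averaging probe sets gave 1.02 for Hnrnpll. Hnrnph1 did not pass without HuD array 1 (1.01) or IgG array 2 (0.55), with quantile normalization (0.85) or averaged (0.60). Hnrnpf did not without HuD arrays 1 (0.90) or 3 (0.76) or IgG array 1 (0.64) or on its probe sets without an x or s suffix (0.47), and Hnrnpab not without HuD array 1 (0.75) or 3 (0.71). With averaged probe sets Hnrnpab was at 0.46, Hnrnpa1 at −0.54 and Hnrnpr at −0.25, none past the threshold, while Hnrnpa2b1 passed at −1.03 and Hnrnpk at 0.70. Hnrnpr also did not pass without HuD array 1 (−0.82) or with 75th percentile centring (−0.58), where Hnrnpu (0.88) and Hnrnpul1 (0.84) did. Hnrnpu was at 0.64 without IgG array 1, but was negative with averaged probe sets (−0.52) or without x and s probe sets (−0.82). Without IgG array 2, the differences were −0.68 for Hnrnpa2b1, −0.95 for Hnrnph3 and −0.92 for Hnrnpul2. With 1 IgG array left, the fit took its spread from the HuD arrays alone, so only differences are given for these genes.

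Genes of SF3 subunits were called in both directions. Sf3b4, a subunit of SF3b that contacts the pre-mRNA near the branch site, had signals of 1786, 1968 and 2278 on the HuD arrays, against 526 and 837 on the IgG arrays and 827 in the input. All HuD arrays were above the IgG arrays and the input (2.92-fold, log2 difference 1.55 ± 0.27, adjusted p = 0.00119). Sf3b2, which binds Sf3b4 in the same complex, had signals of 858, 972 and 928 on the HuD arrays, against 3143 and 2665 on the IgG arrays and 2257 in the input. The HuD arrays agreed closely and lay below all others (3.08-fold lower, log2 difference −1.62 ± 0.24, adjusted p = 0.000486). The small subunit gene Sf3b5 had signals of 139.6, 196 and 131 on the HuD arrays, against 499 and 896 on the IgG arrays and 492 in the input. IgG array 1 was at the level of the input and IgG array 2 above it (3.78-fold lower, −1.92 ± 0.31, adjusted p = 0.000746).

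Within SF3a, which joins SF3b in the mature U2 snRNP, Sf3a2 had signals of 387, 347 and 556 on the HuD arrays, against 1226 and 1130.3 on the IgG arrays and 1140.2 in the input. The IgG arrays and the input were alike and all HuD arrays below them (−1.41 ± 0.27, adjusted p = 0.00181). Sf3a3 also fell (−1.07 ± 0.26). Sf3a1 (0.19 ± 0.26), Sf3b1 (−0.54 ± 0.25), the subunit most often mutated in myelodysplasia in humans, Sf3b3 (−0.14 ± 0.28) and Sf3b6 (−0.056 ± 0.40), which touches the branch adenosine, did not pass. Sf3b6 had signals of 867, 1535 and 1263 on the HuD arrays, against 731 and 2084 on the IgG arrays and 952 in the input, with IgG array 2 apart from all others. The calls of Sf3b4, Sf3b2, Sf3b5, Sf3a2 and Sf3a3 held in every alternative in which the gene was tested. Their values with averaged probe sets were −1.07 for Sf3b2, −1.20 for Sf3b5, −0.61 for Sf3a2 and −0.70 for Sf3a3, and Sf3a3 was at −0.69 with the largest pseudocount tried. Sf3a2 was called on a probe set with an s suffix and was not tested where such probe sets were left out. Its other tested probe set was at 0.20, the opposite sign, and did not pass.

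Of the U2AF genes, U2af1l4, a relative of the small subunit, had signals of 97.9, 236 and 109 on the HuD arrays, against 541 and 434 on the IgG arrays and 504 in the input. The IgG arrays were close to the input and the HuD arrays below (−1.60 ± 0.33, adjusted p = 0.00257). U2af1, the small subunit that reads the AG of the 3′ splice site, had signals of 79.9, 245 and 53.9 on the HuD arrays, against 620.2 and 163 on the IgG arrays and 219 in the input. HuD array 2 lay above IgG array 2, so the groups overlapped, and the call (−1.36 ± 0.53, adjusted p = 0.0471) was lost in 12 of 17 alternatives. These included leaving out HuD arrays 1 (−1.21) or 3 (−1.02) or IgG array 1 (−0.49), while the difference was −2.23 without IgG array 2. U2af2, the large subunit that binds the polypyrimidine tract, did not pass (0.33 ± 0.25).

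The largest rise of the whole set was in Snrpd3, a protein of the Sm ring, with signals of 2925, 4284 and 3520.1 on the HuD arrays, against 774 and 514 on the IgG arrays and 1070.3 in the input. All HuD arrays were above the input and both IgG arrays under it (5.38-fold, log2 difference 2.43 ± 0.27, adjusted p = 0.000187). Snrpb2, a U2-specific protein that binds a stem-loop of the U2 snRNA, had signals of 746, 752 and 598 on the HuD arrays, against 227 and 336 on the IgG arrays and 492 in the input. The input lay between the groups (1.24 ± 0.27, adjusted p = 0.00338). Its partner on the U2 snRNP, Snrpa1, had signals of 403, 393 and 457 on the HuD arrays, against 1086 and 1414 on the IgG arrays and 895 in the input, the opposite order (2.83-fold lower, −1.50 ± 0.25, adjusted p = 0.000989).

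Snrpb, which encodes the Sm protein B, had signals of 348, 356 and 461 on the HuD arrays, against 847 and 1590.2 on the IgG arrays and 1264 in the input. All HuD arrays were below the other arrays, although the IgG arrays were far apart (−1.52 ± 0.30, adjusted p = 0.00222). Snrpn, the imprinted brain homologue of Snrpb, had signals of 58.2, 68.6 and 49.5 on the HuD arrays, against 61.9 and 107 on the IgG arrays and 183 in the input on its only probe set with 1 symbol. It did not pass between the pulldowns (−0.34 ± 0.26). Their coding sequences are close, so how their transcripts share the probes is uncertain. Snrpc of the U1 snRNP (−0.9995 ± 0.29) and the Sm gene Snrpg (−1.18 ± 0.39) fell, and the Sm genes Snrpe (−0.83 ± 0.36) and Snrpf (0.10 ± 0.33) did not pass.

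Snrpb2, Snrpa1 and Snrpb passed in every alternative, with Snrpb2 at 0.69 when probe sets were averaged and Snrpb at −0.76 on its probe set without an s suffix. In the fit over probe sets, though, 1 of 3 for Snrpb2 was called higher, the lowest being at 0.087, and 1 of 2 for Snrpb was called lower. Snrpd3 did not pass when probe sets named with an x or s suffix were left out (0.99). Snrpc did not pass without HuD array 1 (−0.92) or IgG array 2 (−0.63), with 75th percentile centring (−0.68) or averaged (−0.38). Snrpg did not pass without HuD arrays 1 (−1.24) or 2 (−0.96) or IgG array 2 (−0.44), with median (−1.03) or 75th percentile centring (−0.86), or without the filter on low values, and was at −1.91 without IgG array 1. Snrpe was at −1.54 without IgG array 1, and at −0.96 and past the threshold with quantile normalization.

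The Prpf genes with the largest falls encode proteins of the U5 snRNP. Prpf6, which bridges parts of the tri-snRNP, had signals of 134, 129.7 and 135 on the HuD arrays, against 662 and 302 on the IgG arrays and 537 in the input. The HuD arrays agreed closely, and IgG array 1 was about as high as the input (2.92-fold lower, −1.55 ± 0.32, adjusted p = 0.0024). Prpf8, the scaffold of the catalytic centre, had signals of 127.7, 169 and 123.1 on the HuD arrays, against 526 and 396 on the IgG arrays and 509 in the input. All HuD arrays were below the others (2.86-fold lower, −1.52 ± 0.27, adjusted p = 0.00116). Prpf19, a ubiquitin ligase of the complex that stabilises the active spliceosome, had signals of 4382, 6047 and 5116 on the HuD arrays, against 8645 and 10878 on the IgG arrays and 3391 in the input. It was the one gene among those called lower whose HuD arrays were all above the input (−0.91 ± 0.23).

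Prpf3, a U4/U6 protein, fell (−1.02 ± 0.33), and the kinase gene Prpf4b (0.72 ± 0.26) and Prpf38a (0.67 ± 0.25), which acts in activation, rose. Prpf39 (0.78 ± 0.33), Prpf18 (0.19 ± 0.26), Prpf31 (0.10 ± 0.33) and Prpf38b (−0.31 ± 0.25) did not pass. The calls of Prpf6 and Prpf8 held in every alternative, with Prpf6 at −1.02 without IgG array 1. Prpf19 did not pass with 75th percentile centring (−0.59). Without HuD array 1, calls were lost for Prpf3 (−0.98), Prpf4b (0.61) and Prpf38a (0.66), as they were without HuD array 3 (−0.74, 0.79 and 0.74) and IgG array 2 (−0.82, 0.57 and 0.52). Without HuD array 2 the calls of Prpf4b (0.76) and Prpf38a (0.62) were lost too. With averaged probe sets Prpf4b was at −0.32, the opposite sign, and Prpf38a at 0.26, and neither passed with array weights or without the filter on low values. Prpf3 did not pass without that filter or with quantile normalization (−0.77), median centring (−0.87) or 75th percentile centring (−0.70). Prpf39 passed without HuD array 3 (1.06), and with quantile normalization (1.06), median (0.93) or 75th percentile centring (1.10). It was at 1.12 without IgG array 1.

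The remaining 3 genes were too dim to be tested as genes. Hnrnpl, which binds CA-rich RNA, had signals of 65.8, 135 and 58.5 on the HuD arrays, against 55.8 and 31.2 on the IgG arrays and 22.9 in the input. Prpf4, a U4/U6 protein, had signals of 42.8, 45.5 and 26.8 on the HuD arrays, against 81.9 and 43.3 on the IgG arrays and 56.5 in the input, and Prpf40b, a homologue of a yeast U1 protein, had 20.6, 58.4 and 25.6 on the HuD arrays, against 119 and 55.5 on the IgG arrays and 76.5 in the input. The groups overlapped for Prpf4 and Prpf40b.

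**Figure D2:**
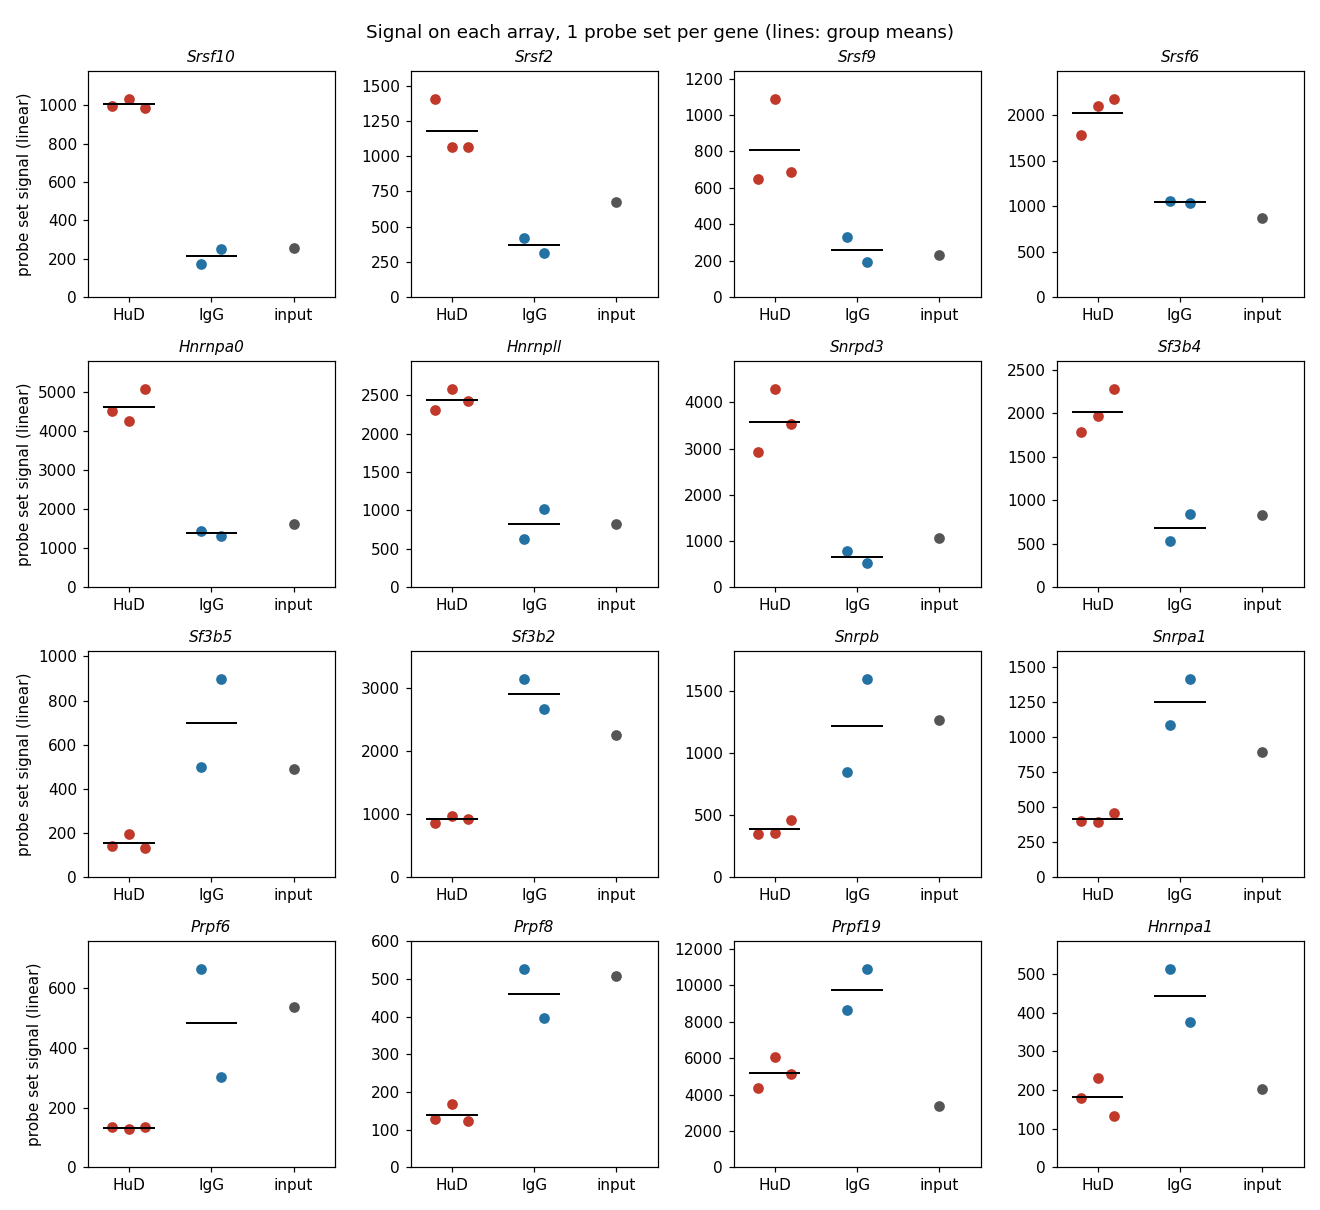
Linear probe set signal (vertical axis, each from 0) on the 3 HuD, 2 IgG and 1 input arrays for 16 genes, with lines at the means of the HuD and IgG arrays. In the upper 8 panels all HuD arrays stand above the rest, and in the next 6 they stand below, while for Prpf19 and Hnrnpa1 the IgG arrays stand above the input.

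The comparison of HuD pulldowns with input used the same HuD arrays, so it is not independent of the one above, and the single input array was assumed to vary like the pulldowns. In limma 12 of the 58 genes (20.7%) were higher and 12 (20.7%) lower than in the input, beside 15.7% and 25.9% of all tested genes. Every HuD array was above the input in 27 of the 58 and below it in 24, beside 32.5% and 52.7% of all tested genes. SR genes had 4 higher and 0 lower, hnRNP genes 6 and 1, SF3 genes 1 and 4, U2AF genes 0 and 1, Snrp genes 1 and 4 and Prpf genes 0 and 2. The rises were led by Srsf10 (1.86 ± 0.33, adjusted p = 0.00311), Snrpd3 (1.69 ± 0.35, adjusted p = 0.00487), Srsf9 (1.62 ± 0.40), Hnrnpll (1.53 ± 0.34), Hnrnpf (1.50 ± 0.32) and Hnrnpa0 (1.49 ± 0.29). The falls were led by Prpf6 (−1.79 ± 0.40, adjusted p = 0.00669), Prpf8 (−1.66 ± 0.34, adjusted p = 0.00467), U2af1l4 (−1.66 ± 0.42), Snrpb (−1.64 ± 0.39), Sf3b5 (−1.50 ± 0.39) and Snrpc (−1.46 ± 0.37). Snrpc had signals of 254, 324 and 289.5 in the HuD pulldowns and 846 in the input, with 462 and 798 in the IgG pulldowns. Hnrnpf (0.52), Snrpd3 (0.96), Prpf6 (−0.83) and Snrpc (−0.60) did not pass with averaged probe sets. On probe sets without an x or s suffix Snrpd3 (0.38) and Hnrnpf (−0.082, the opposite sign) did not pass either.

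Hnrnpu (1.29 ± 0.28) and Hnrnpk (0.96 ± 0.26) were higher than input without passing against IgG, and Hnrnpm (−1.02 ± 0.34) and Snrpn (−1.25 ± 0.33) were lower. Hnrnpm (−0.92 to −1.19) lost its call when any one HuD array was left out, and Hnrnpk without HuD array 3 (0.94) and with quantile normalization (0.49). Hnrnpu did not pass with averaged probe sets (0.16), and on its probe sets without an x or s suffix it was lower than input without passing (−0.67). Hnrnpm (−0.85) and Snrpn (−0.92) did not pass with quantile normalization, nor with 75th percentile centring (−0.67 and −0.90). For 5 of the 18 genes called higher than IgG (27.8%) and 2 of the 16 called lower (12.5%) the IgG pulldowns were further from the input than the HuD pulldowns were. Among all genes so called the shares were 12.4% and 11.3%. Prpf38a was such a gene, at −0.26 in HuD against input and −0.93 in IgG against input. Srsf2, Srsf3, Srsf12 and Snrpb2 were the others among the rises. Prpf19 (0.59 in HuD and 1.51 in IgG) and Hnrnpa1 (−0.16 and 1.00) were those among the falls.

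**Figure D3:**
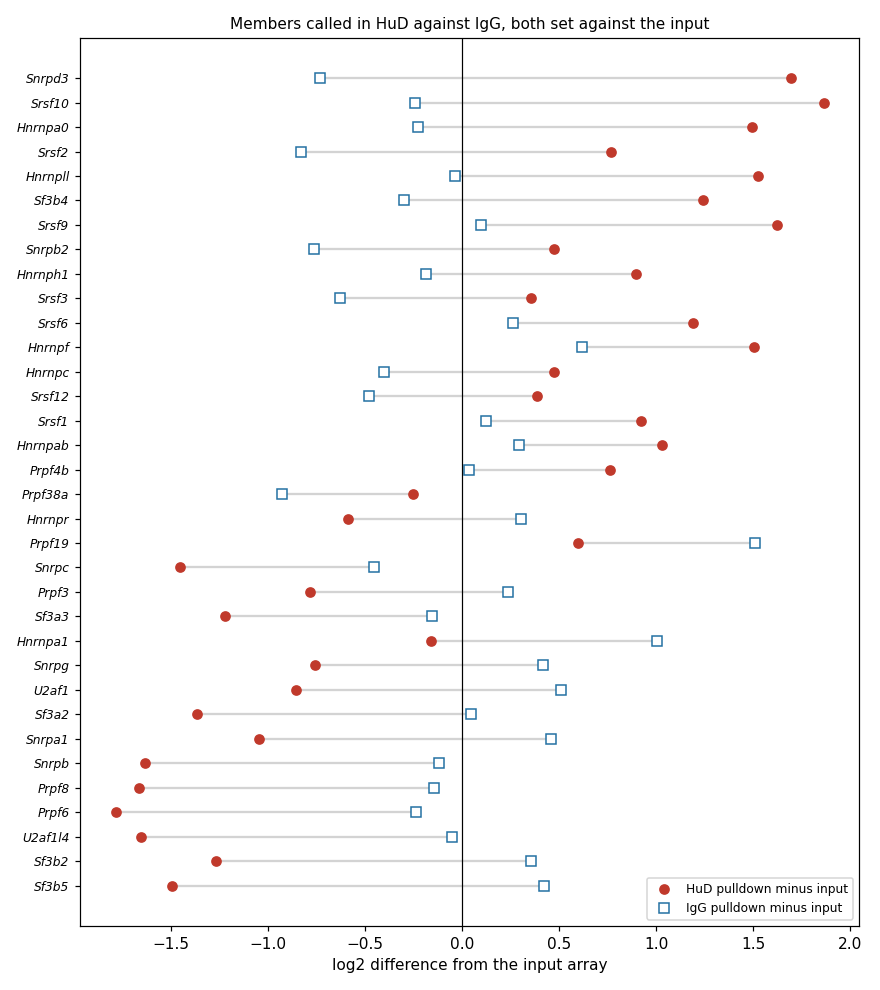
Log2 difference from the input array (horizontal axis) of the HuD pulldowns (filled circles) and the IgG pulldowns (open squares) for the 34 genes called between the pulldowns. For most genes the squares lie nearer 0 than the circles, and the 7 exceptions include Prpf19, Hnrnpa1 and Prpf38a.

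IgG pulldowns against input gave 0 of 58 genes past the threshold in limma. Among all 9097 genes 2 (0.0220%) were higher and 0 lower. Of the 58 genes 8 had an unadjusted p under 0.05 in limma, beside 641 of the 9097. The largest difference of the set was that of Prpf19 (1.51 ± 0.31, adjusted p = 0.346). The IgG arrays were at least 2-fold apart in 9 of the 58 genes (15.5%), beside 10.4% of all tested genes. The Sm genes Snrpe, Snrpf and Snrpg and the SF3b gene Sf3b6 were higher on IgG array 2. Hnrnph1, Hnrnpul2, Prpf6, Srsf5 and U2af1 were higher on IgG array 1. Snrpe had 1981 and 5381 on the IgG arrays, with 1627, 1943 and 1929 on the HuD arrays and 2205 in the input. Snrpg had 1668 and 4690.3 on the IgG arrays, with 1333, 888 and 1532 on the HuD arrays and 2092 in the input. For both, IgG array 2 was far above every other array. Within the title suffix le1 the median log2 difference of the set between HuD and IgG was 0.14, and within the suffix e1_le1 it was 0.043. What the suffixes stand for is not given in the labels.

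Some genes had probe sets with unlike calls. In a fit over 22519 probe sets, 152 of the 171 were tested, of which 36 (23.7%) were higher and 38 (25.0%) lower with HuD than with IgG, beside 14.7% and 26.0% of all tested probe sets. By group, SR genes had 17 of 30 probe sets higher and 2 lower, hnRNP genes 13 of 52 higher and 9 lower, and SF3 genes 2 of 24 higher and 11 lower. Snrp genes had 3 of 17 higher and 7 lower, and Prpf genes 1 of 26 higher and 8 lower. Of 38 genes with at least 2 tested probe sets, 3 had all of them higher, 4 had all lower, 4 had both kinds of call and 8 had no call. These were 7.89%, 10.5%, 10.5% and 21.1% of the 38, beside 6.27%, 11.1%, 2.93% and 34.6% of the 4914 genes with at least 2 tested probe sets. Srsf1, with 5 tested probe sets, and Srsf6, with 4, were higher on each, from 0.74 to 1.20 for Srsf1 and from 0.93 to 1.51 for Srsf6. Hnrnpc was also higher on both, and Sf3b5, Snrpa1, Snrpg and Prpf6 were lower on all. Against input 21 probe sets were higher and 20 lower, beside 9.75% and 15.6% of all. Those counts were 10 and 4 without HuD array 1, and 13 and 12 without HuD array 3. Leaving out an IgG array did not change the differences from input, only the spread they were judged by. Against IgG the counts were 21 and 22 without HuD array 1. For IgG against input 0 of 152 passed in limma, while 0.235% of all tested probe sets were higher and 0.00444% lower. Of the 152, 20 had an unadjusted p under 0.05, beside 2145 of all 22519. In the fit of HuD against IgG, U2af1 and Prpf38a, called as genes, did not pass (adjusted p = 0.0549 and 0.0532).

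Genes numbering 4 had probe sets called in opposite directions. For Sf3b1 the probe set 1418561_at had signals of 399, 648 and 327 on the HuD arrays, against 226 and 92.1 on the IgG arrays and 104 in the input, and was higher (1.40 ± 0.36, adjusted p = 0.0104). The probe set 1418562_at of the same gene had 215, 158 and 209 on the HuD arrays, against 418 and 427 on the IgG arrays and 509 in the input, and was lower (−1.02 ± 0.26, adjusted p = 0.0102), as was 1440818_s_at (−1.06). Both differences were larger than the spread of the arrays, and the groups did not overlap for either. Hnrnpr was lower on 3 probe sets, down to −1.24, and higher on 1429232_at, which had signals of 510.1, 374 and 338 on the HuD arrays, against 145 and 124 on the IgG arrays and 132 in the input (1.38 ± 0.27).

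Hnrnpab was higher on 4 probe sets, up to 1.28, and lower on 1426114_at, with signals of 222, 233 and 199 on the HuD arrays, against 456 and 349 on the IgG arrays and 508 in the input (−0.79 ± 0.26). Prpf4b was higher on 1425498_at (0.72 ± 0.27), with signals of 447, 358 and 340.2 on the HuD arrays, against 245 and 192 on the IgG arrays and 211 in the input, and lower on 1455696_a_at (−1.38 ± 0.26), with signals of 215, 178 and 196 on the HuD arrays, against 586 and 533 on the IgG arrays and 131 in the input. On the probe set called lower the HuD arrays lay above the input and the IgG arrays further above it. A probe set of Hnrnpa2b1, 1434047_x_at, had 108, 272 and 166 on the HuD arrays, against 844 and 972 on the IgG arrays and 149 in the input, so the IgG arrays stood far above the rest (−2.20 ± 0.33). Srsf10 had 2 probe sets called higher and 2 that did not pass (0.14 and 0.13), Srsf2 had 1 of 4 called higher, and Srsf11 had 2 bright ones that did not pass and 2 dim ones called lower (−1.37 and −0.91). Which exons or 3′ ends these probe sets read was not analysed here.

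**Figure D4:**
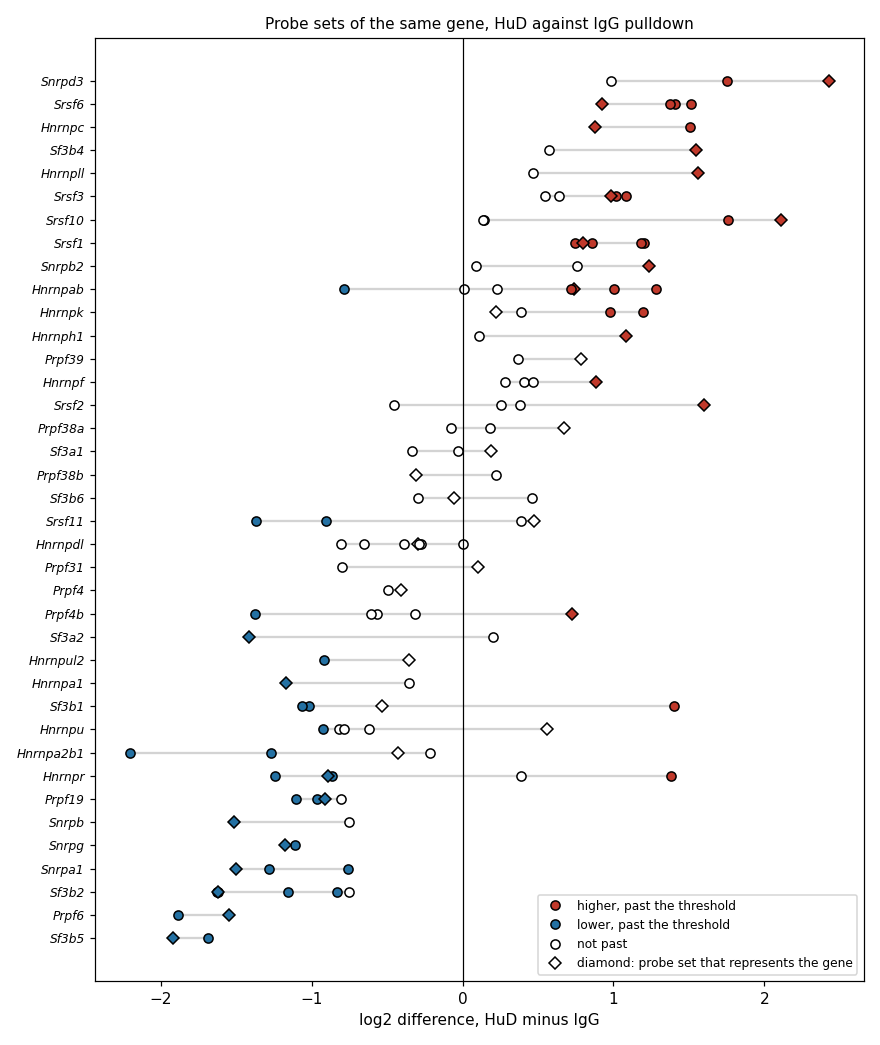
Log2 difference between HuD and IgG pulldowns (horizontal axis) of each tested probe set, 1 row for each of 38 genes with at least 2. Red marks are called higher, blue lower and white neither, and the diamond is the probe set that stands for the gene. Sf3b1, Hnrnpr, Hnrnpab and Prpf4b carry both red and blue marks.

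Of the 58 genes, 17 were read by a probe set whose name ends in x_at or s_at, a naming by which Affymetrix marks probes that may match other sequences too. Without such probe sets 55 of the genes were tested, of which 14 (25.5%) rose and 13 (23.6%) fell, beside 21.2% and 31.9% of all genes. The median log2 difference was 0.10, with −0.27 for all genes.

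Other genes of the splicing pathway were taken from 7 lists with 106 genes, of which 94 had a probe set and 76 were tested. Between HuD and IgG pulldowns 11 (14.5%) were higher and 34 (44.7%) lower, beside 21.5% and 34.0% of all tested genes, with a median log2 difference of −0.43. Between HuD pulldowns and input 8 (10.5%) were higher and 20 (26.3%) lower, beside 15.7% and 25.9% of all tested genes. The share of falls was thus close to that of all genes when the input was the reference. Rises and falls in the single lists below are against IgG. Of 23 snRNP genes outside the named set 2 rose and 10 fell. The U5 helicase gene Snrnp200 fell (−1.55 ± 0.32), with signals of 246, 278 and 195 on the HuD arrays, against 1075 and 528 on the IgG arrays and 704 in the input, and Smndc1, a factor of spliceosome assembly, rose (1.65 ± 0.24). Of 16 genes of the Prp19 complex and the catalytic steps 2 rose and 8 fell, among them Snw1 (−1.48 ± 0.27), Xab2 (−1.42 ± 0.25) and Cdc5l (−1.28 ± 0.27), all parts of the activated spliceosome. Of 6 factors of the 3′ splice site 0 rose and 2 fell, with Puf60, a relative of U2af2, at −1.77 ± 0.39.

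Of 12 SR-related genes and SR kinases 1 rose and 7 fell against IgG, unlike the 7 rises and 0 falls among SR genes, a contrast that was not itself tested. The rise was that of Srpk1, a kinase that phosphorylates SR proteins, with signals of 1419.5, 1736 and 1269.9 on the HuD arrays, against 355 and 337 on the IgG arrays and 219.9 in the input (1.99 ± 0.26, adjusted p = 0.000289). All HuD arrays were several times above the others. The kinase genes Clk1 (−0.95), Clk2 (−0.83) and Clk3 (−1.05) and the speckle gene Son (−1.22 ± 0.25) fell, and Srrm2 was lowest (−2.39 ± 0.34). Set against the input, however, 2 of these 12 genes were higher with HuD and 0 lower. The IgG pulldowns were above the input in 11 of the 12 (median log2 difference 0.40), with 0 called. Of 7 genes linked to the exon junction complex 3 rose, with the export adaptor Alyref at 1.55 ± 0.31, and 1 fell. Of 7 genes of Sm protein assembly 2 rose and 2 fell, led by Gemin8 (1.37 ± 0.28) of the SMN complex and by Wdr77 (−1.07 ± 0.27), a partner of the arginine methyltransferase Prmt5. All 5 tested genes of the minor spliceosome passed: Pdcd7 rose (1.15 ± 0.28) and Snrnp25 (−1.08 ± 0.26), Snrnp48 (−1.05), Rnpc3 (−0.92) and Zcrb1 (−0.90) fell.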

How the data were processed

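The authors deposited linear probe set intensities, 1 signal per probe set and array. The sources used here do not name the software. The mean without the lowest and highest 2% was 150.001 on every array, so each array had been scaled. No detection calls were used, and the number of arrays limits the precision. Of 45101 probe sets 64 controls were left out. In a platform annotation 34958 probe sets had 1 symbol and 932 had several, a few controls included, while 9160 were unnamed here, controls not counted. Only probe sets with 1 symbol were named, and 0 symbols needed updating through RefSeq (GRCm38.p6, names only).

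From the deposited intensities, log2(signal + 32) was computed, so fold changes understate those of dim genes. The probe set brightest on average over the 6 arrays, 3 of them HuD arrays, stood for its gene. This choice and the filter on low values thus used the values that were then compared. Both can favour probe sets that are high with HuD. The 9097 genes at or above the median were fitted with limma 3.58.1 in R 4.3.3 (1 mean per group, 6 arrays, eBayes with trend, 3 residual and 8.40 prior degrees of freedom), with Benjamini-Hochberg adjustment at 0.05. Errors after ± are standard errors of log2 differences. The same model was fitted to 22519 probe sets. Steps were tested on simulated data. Array numbers follow the order of deposit. The labels do not say that arrays are separate animals, so p-values measure the spread between arrays, which may be technical. The genes, the lists and the rule for named genes (the largest called changes per comparison, genes with opposite probe sets, and paralogs, each with values on every array) were chosen with earlier results of these data known. No sequences are shown, since probe and transcript sequences were not used here, and 1 further gene is not reported here.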

Additional observations from a re-analysis of the deposited data

How the results depend on the processing

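For HuD against IgG, 8 of the 18 genes called higher and 9 of the 16 called lower passed in every one of up to 17 alternatives in which they were tested. Quantile normalization and median centring left all 12 counts of genes and probe sets within 1.5 times their value, while 75th percentile centring moved 6, leaving out HuD array 1 moved 5, HuD array 3 moved 2, IgG array 1 moved 1 and IgG array 2 moved 2. With 75th percentile centring 10 genes and 20 probe sets were lower than IgG, 19 genes and 39 probe sets were higher than input, 8 probe sets were lower than input and 2 were higher in IgG than in input. Without the filter on low values 24 probe sets were lower than IgG, 12 higher than input and 9 lower than input, with all 45037 probe sets tested. A pseudocount of 8 gave 1 probe set higher in IgG than in input. The median of the set against IgG was 0.25 with median centring, 0.42 with 75th percentile centring and −0.28 with probe sets averaged. Against input it was 0.15 with quantile normalization and 0.38 with 75th percentile centring. For IgG against input it was −0.33 with median centring, −0.00055 with probe sets averaged, −0.21 without x or s probe sets, an alternative chosen after seeing the data, and 0.042 within the suffix le1. All genes shifted too: their median against IgG was −0.28 as deposited, −0.11 with quantile normalization, −0.13 with median centring and 0.036 with 75th percentile centring. Of genes called in a comparison, 3 changed sign there: Prpf4b against IgG with probe sets averaged (−0.32), and Hnrnpf (−0.082) and Hnrnpu (−0.67) against input without x or s probe sets. Of genes not called, 12 changed sign in at least 1 alternative against IgG and 12 against input. The causes were not tested.

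With 1 array left out, 10 to 18 genes were higher and 11 to 17 lower than IgG, 9 to 17 higher and 9 to 14 lower than input, and 0 in either direction for IgG against input. Probe sets numbered 21 to 34 higher and 22 to 46 lower than IgG, 10 to 30 higher and 4 to 32 lower than input, and 0 to 4 higher and 0 lower for IgG against input. The medians were 0.018 to 0.26, 0.023 to 0.064 and −0.11 to 0.042. The lowest counts against IgG came without HuD array 1. With 1 IgG array left, the fit took its spread from the HuD arrays alone, and counts from it rest on that spread. The highest counts against input came from such fits, in which the differences between HuD and input were unchanged.

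Numbers and suffixes in the titles do not state a shared preparation. Deviations of same-numbered HuD and IgG arrays correlated across genes at −0.030, 0.34 and 0.40. Those of arrays with the same suffix correlated at −0.030, −0.34 and 0.40. The deviations of 2 IgG arrays mirror each other, so these values are not independent of one another. With the title suffix as a replicate block, 19 genes were higher and 16 lower than IgG, and 11 probe sets were lower than input. With the title number as a replicate block, without the input, 20 were higher and 19 lower than IgG. Calls gained there were those of Hnrnpu (0.56) and Prpf39 (0.65) as higher, and of Srsf5 (−0.73), Snrpe (−0.72) and Hnrnph3 (−0.70) as lower.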
